A study of Mus musculus with 13 samples.

Results

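The genes described here encode the respiratory chain and ATP synthase of the mitochondrion. They were picked by symbol, as the mt-Nd, mt-Co, mt-Atp and mt-Cyt genes of mitochondrial DNA and the nuclear Nduf, Sdh, Uqcr, Cox4 to Cox8 and Atp5 genes. The rule reads no measured value, although earlier results of these data were known when it was set. The rule found 107 genes among the 32285 of the files, 94 of them nuclear and 13 mitochondrial. By complex they are 37 nuclear and 7 mt- members of complex I with 8 Ndufaf assembly factors, 4 of complex II, 8 nuclear and 1 mt- of complex III, 20 nuclear and 3 mt- of complex IV, and 17 nuclear and 2 mt- of complex V. Ndufb1-ps, annotated as a non-coding gene, is counted among the 37 by its symbol.

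The study grew colon tumors in C57BL/6J mice of the genotype ApcMin/+; p16cis/cis, which combine the truncating Min allele of Apc with an epimutation of p16 (Cdkn2a), that is, a change in the methylation of its promoter. Of the 13 droplet-based single-cell RNA-seq libraries, 10 were made from colon tumors and 3 from adjacent mucosa, and all of the mice ate the supplemented diet, enriched in folate and its cofactors, so that no diet was compared. Mouse A (24 weeks old) gave mucosa 2 and tumors 5 to 8, mouse B (23 weeks) mucosa 3 and tumors 9 and 10, and mouse C (20 weeks) mucosa 1 and tumors 1 to 4. Mucosa was released with EDTA and TrypLE and tumors with a tumor dissociation kit, so an effect of the dissociation and an effect of the tissue cannot be told apart. Every mouse carried both alleles, so neither allele was varied. Tumors of 1 mouse share that animal, and the 3 mucosa samples are the only non-tumor tissue.

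The respiratory chain passes electrons from NADH and succinate to oxygen through complexes I to IV and uses the energy to pump protons across the inner mitochondrial membrane, and complex V, the ATP synthase, makes ATP as the protons return. Complex II is wholly nuclear and also works in the tricarboxylic acid cycle, whereas the other complexes join nuclear subunits to a hydrophobic core encoded in mitochondrial DNA. In the colon, absorptive cells of the surface are rich in mitochondria and oxidize butyrate from the lumen.

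Of 137591 barcodes, 109915 were kept as cells, 86691 from tumors and 23224 from mucosa, each with under 25% of its unique molecular identifiers (UMIs) from mt- genes. This limit acts on the mt- members themselves, and it removed 14.3% to 28.9% of barcodes in the mucosa libraries and 4.29% to 11.5% in the tumor libraries. Cells of the mucosa libraries had a median of 7316 to 9738 UMIs and those of the tumor libraries 3606 to 5016. Of 135282 distinct barcodes, 2284 occurred in more than 1 library. Counts of Xist and of Y-linked genes went against the sex label in 7 libraries but agreed among the libraries of each mouse, and the label was not used. In each cluster called epithelial, all 9 epithelial markers and 0 of the immune markers were detected in at least 25% of cells. Fewer mitochondria per cell and less of each transcript per mitochondrion cannot be told apart in these counts.

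Cell classes differed widely in both sets of transcripts, and these levels are given as a description, because the classes were drawn from the same cells, although the members were held out of the genes used to cluster them. Nuclear members are given as a percent of non-mitochondrial UMIs and mt- members as a percent of all UMIs, summed over the cells of a class in each library. Epithelial cells held the most, with a nuclear share of 5.85% ± 0.504 in mucosa (SD, n = 3) and 3.77% ± 0.711 in tumors (SD, n = 10). Within mucosa, absorptive epithelial-like cells held 6.39% ± 0.239, crypt epithelial-like cells 5.75% ± 0.890, goblet-like cells 5.24% ± 0.919 and enteroendocrine-like cells 3.94% ± 0.762 (SD, n = 3 for each). The first of these differed from the crypt and goblet levels by less than or about their spread, and only the enteroendocrine-like level lay apart from the absorptive-like one. Leading genes of the enteroendocrine-like cluster included Dclk1, a marker of tuft cells, beside Chgb and Gcg. No cluster was named for tuft cells, so this level may belong to a mix.

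Immune cells held less. The nuclear share in tumors was 2.46% ± 0.328 in dendritic-like cells, 2.38% ± 0.374 in Ly6c+ monocyte-like cells, 2.27% ± 0.395 in C1q+ macrophage-like cells, 2.27% ± 0.364 in T cell-like cells and, below them, 2.02% ± 0.326 in the NK or innate lymphoid-like class (SD, n = 10 for each). Neighbors in this order differed by less than their SD. Spp1+ macrophage-like cells (1.76% ± 0.339), B cell-like cells (1.51% ± 0.232) and plasma cell-like cells (1.29% ± 0.200) followed. Neutrophil-like cells had the lowest mean, 0.649% ± 0.106 (SD, n = 10), and their highest tumor (0.806%) lay below the lowest tumor of the plasma cell-like cells (1.02%) but within the range of the fibroblast-like cells (0.427% to 1.51%). Neutrophils are known to live largely on glycolysis. The mt- share followed a similar order, from 9.98% ± 2.25 in absorptive epithelial-like cells of tumors to 1.37% ± 0.310 in neutrophil-like cells, but fibroblast-like cells combined a high mt- share of 6.96% ± 2.79 with a nuclear share of only 0.948% ± 0.519 (SD, n = 6).

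**Figure D1:**
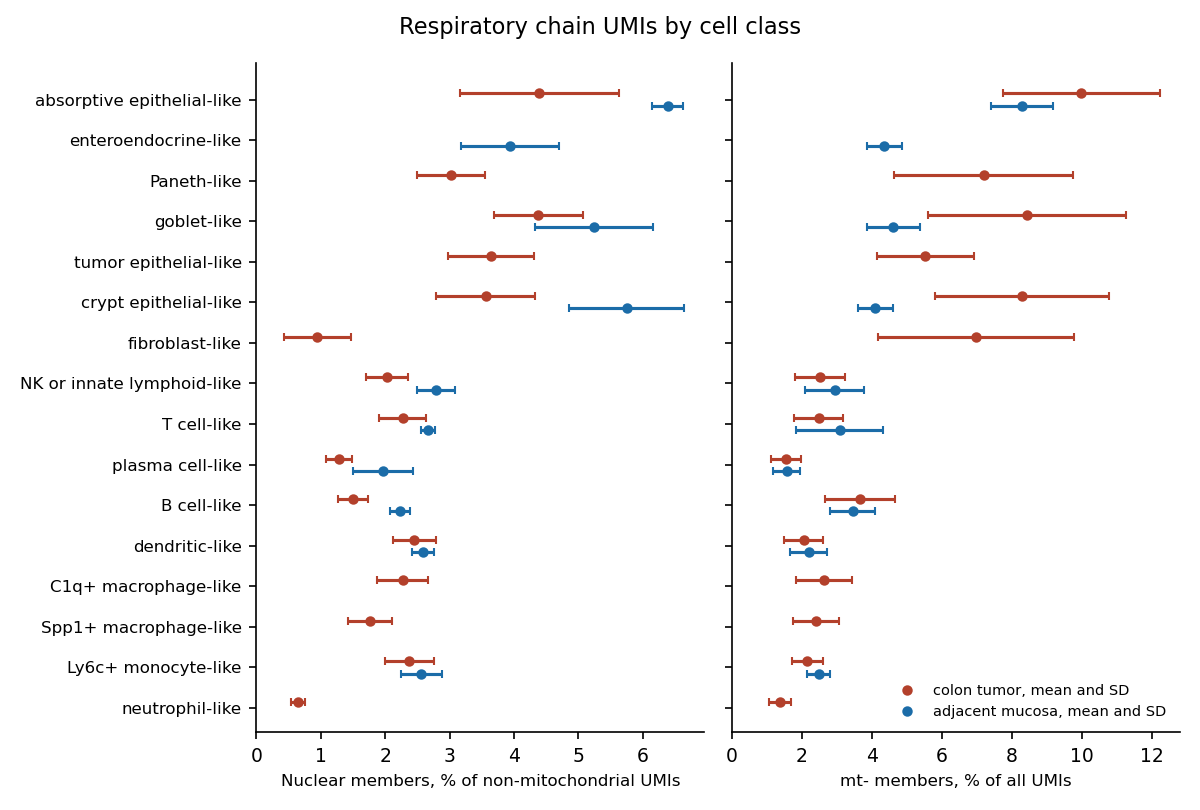
Nuclear members as a percent of non-mitochondrial UMIs (left) and mt- members as a percent of all UMIs (right) by cell class. Points and bars give the mean and SD over libraries where a class had 20 or more cells, in colon tumors and adjacent mucosa, with no point where fewer than 3 libraries had enough cells. Epithelial classes lie highest and neutrophil-like cells lowest in the nuclear panel, at 0.649% ± 0.106 in tumors.

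In sums of all epithelial cells, the nuclear respiratory chain genes were lower in tumors than in mucosa as a whole group, while none of the 13 mt- genes passed the test. UMIs of all epithelial cells were summed in each library and tested with the quasi-likelihood test of edgeR with Benjamini-Hochberg adjustment over 15524 genes. Most clusters in these sums were found almost wholly in 1 tissue. Tumor epithelial-like cells numbered 4288 in tumors and 4 in mucosa, cells of a cluster led by Sprr2b 1635 and 0, and Paneth-like cells 721 and 4. Clusters led by Gm26917 and Lix1 held 4396 and 3356 tumor cells and 20 and 10 mucosa cells. Clusters led by Nr2e3, Retnlb and Hao2 held 21, 44 and 20 tumor cells and 2902, 2090 and 1355 mucosa cells. Those led by Cyp2c55 and Hist1h1b held 1 and 40 tumor cells and 2271 and 1798 mucosa cells. Of 91 nuclear members tested, 79 fell and 1 rose, against a background of 30.7% of all genes tested that fell and 33.9% that rose. The median log2 fold change was -0.90 over the nuclear members, 0.30 over the mt- members and 0.04 over all genes tested. For 43 of the 79, every tumor lay below every mucosa sample, but the share of all genes with such a separation was not computed. Cox6a2, Cox7b2 and Cox8c were too sparse in epithelial sums to be tested. With the tumors of each mouse summed to 1 sample (3 against 3), 73 nuclear members were lower, as were 4131 of all 16204 genes tested. Without the scaling factor of the trimmed mean of M values (TMM), the median of all genes moved to 0.31, and 63 nuclear members were lower, 2 nuclear members higher and 5 mt- members higher. Of all 15524 genes, 3120 were then lower and 7045 higher. The number of nuclear members higher was also 2 without tumor 6 or tumor 9. Among clusters with cells of both tissues, described below, 42 of 87 nuclear members were lower in that led by Clca4b (background 11.0%). The counts were 7 of 89 in that led by Defb45 and Robo2 (background 5.18%) and 0 of 84 in goblet-like cells (background 1.16%). The part of the different clusters of the 2 tissues in the decrease was not tested.

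The summed share shows the same separation, without a test. It was 6.40%, 5.40% and 5.76% in mucosa 1, 2 and 3. Tumors 1 to 4 of mouse C held 4.24%, 4.80%, 4.26% and 4.22%, tumors 5 to 8 of mouse A 2.89%, 3.25%, 3.36% and 3.39%, and tumors 9 and 10 of mouse B 2.79% and 4.49%. Every tumor lay below every mucosa sample.

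**Figure D2:**
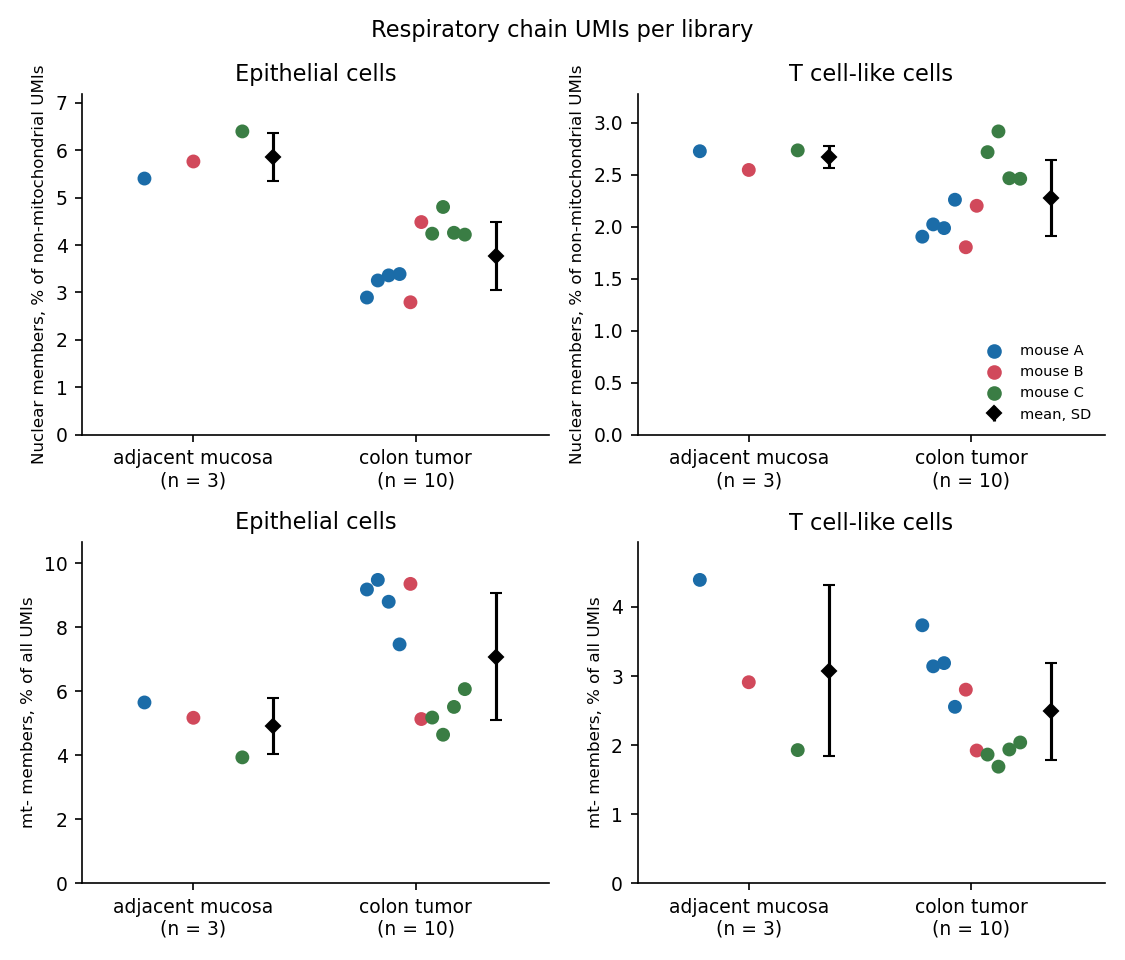
Nuclear members as a percent of non-mitochondrial UMIs (top) and mt- members as a percent of all UMIs (bottom) in epithelial and T cell-like cells. Each point is 1 library, colored by mouse, and the diamond and bar give the mean and SD. The epithelial nuclear share of the 10 tumors, 2.79% to 4.80%, lies below the 3 mucosa samples at 5.40% to 6.40%, while the other panels overlap.

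Complex I takes electrons from NADH. All 7 of its nuclear core subunits, which carry the flavin and the iron-sulfur clusters, were lower in tumor epithelium (median log2 fold change -0.93), as were 25 of 30 accessory subunits (median -0.75) and all 8 assembly factors (median -0.65). Ndufb10, an accessory subunit of the membrane arm, stood at 561, 626 and 677 UMIs per 1000000 UMIs of the epithelial sum (CPM) in mucosa 1, 2 and 3 and at 194 to 350 CPM in tumors (median 251). The groups did not overlap, and Ndufb10 fell by 1.51 on the log2 scale (SE 0.17, adjusted P = 8.7e-06). Ndufb9, another membrane arm subunit, fell by 1.33 (SE 0.19, adjusted P = 5.9e-05), from 1166 to 1412 CPM in mucosa to 442 to 813 CPM in tumors. Ndufb8 fell by 1.13 (SE 0.19), also without overlap. Among the assembly factors, which help to build the complex and are not part of it, Ndufaf1 fell by 1.05 (SE 0.14) and Ndufaf6 by 0.78 (SE 0.15), while Ndufaf8 and Ndufaf4 fell by 0.68 and 0.56. Ndufaf1 was at 18.5, 20.7 and 18.9 CPM in mucosa and at 7.98 to 13.8 CPM in tumors. The genes counted as accessory subunits that did not pass the test were Ndufa1, Ndufa2, Ndufb2, Ndufb4 and the non-coding Ndufb1-ps. Their log2 fold changes were -0.21 to -0.64.

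All 4 genes of complex II, succinate dehydrogenase, were lower, and no tumor reached a mucosa sample for any of them. Sdhb, the iron-sulfur subunit, was at 344, 436 and 521 CPM in mucosa and at 127 to 259 CPM in tumors (median 201), and it fell by 1.39 on the log2 scale (SE 0.19, adjusted P = 3.6e-05). Sdhd, a membrane anchor, stood at 319, 281 and 301 CPM in mucosa and at 91.8 to 205 CPM in tumors (median 136). Its log2 fold change was -1.32 (SE 0.20). Sdha, the flavoprotein with the catalytic site, fell by 1.23 (SE 0.10) and Sdhc, the other anchor, by 1.10 (SE 0.13).

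Complex III passes electrons from ubiquinol to cytochrome c, and all 8 of its nuclear members fell. Uqcrfs1, the Rieske iron-sulfur protein, had the largest decrease of all nuclear members. It was at 506, 608 and 668 CPM in mucosa and at 159 to 354 CPM in tumors (median 240). The log2 fold change was -1.52 (SE 0.22, adjusted P = 5.1e-05), with no overlap. Uqcrc2, a core protein of the matrix side, fell by 1.38 (SE 0.15), Uqcrh, the hinge protein, by 0.94 (SE 0.16) and Uqcr10, a small membrane subunit, by 0.78 (SE 0.28). The first 2 of these had no overlap between tissues, while tumors and mucosa overlapped for Uqcr10.

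Complex IV, cytochrome c oxidase, was less uniform, with 12 of 17 nuclear members lower and 1 higher. Cox5b, a zinc-binding subunit, was at 1754, 1435 and 1505 CPM in mucosa and at 474 to 1143 CPM in tumors (median 741). It fell by 1.28 on the log2 scale (SE 0.27, adjusted P = 0.00091). Cox8a, the common form of the smallest subunit, fell by 1.12 (SE 0.28), from 1891 to 3252 CPM to 808 to 1866 CPM. Cox7c (log2 fold change -0.66, adjusted P = 0.062) and Cox8b (-0.74, adjusted P = 0.41) did not pass. Neither did Ndufa4, once assigned to complex I and now counted in complex IV, at -0.14 (adjusted P = 0.73). Ndufa4 varied as much among mucosa samples (1443, 556 and 796 CPM) as among tumors (635 to 1711 CPM).

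Complex V was lower in 15 of 17 nuclear members. Atp5g1, one of the genes for the c subunit of the rotating ring, was at 1823, 1745 and 1934 CPM in mucosa and at 665 to 1172 CPM in tumors (median 878). It fell by 1.29 on the log2 scale (SE 0.17, adjusted P = 2.9e-05). Atp5o, the stalk subunit called OSCP, fell by 1.35 (SE 0.17), although its 3 mucosa samples spread from 618 to 1199 CPM. Its reads could be shared with a duplicate annotation of the same gene. Exons of Ndufb2, Ndufb8, Ndufb9 and Atp5g2 also overlap those of another annotated gene on the same strand. Atp5e (-0.52, adjusted P = 0.10) and Atp5md (-0.55, adjusted P = 0.20) did not pass.

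**Figure D3:**
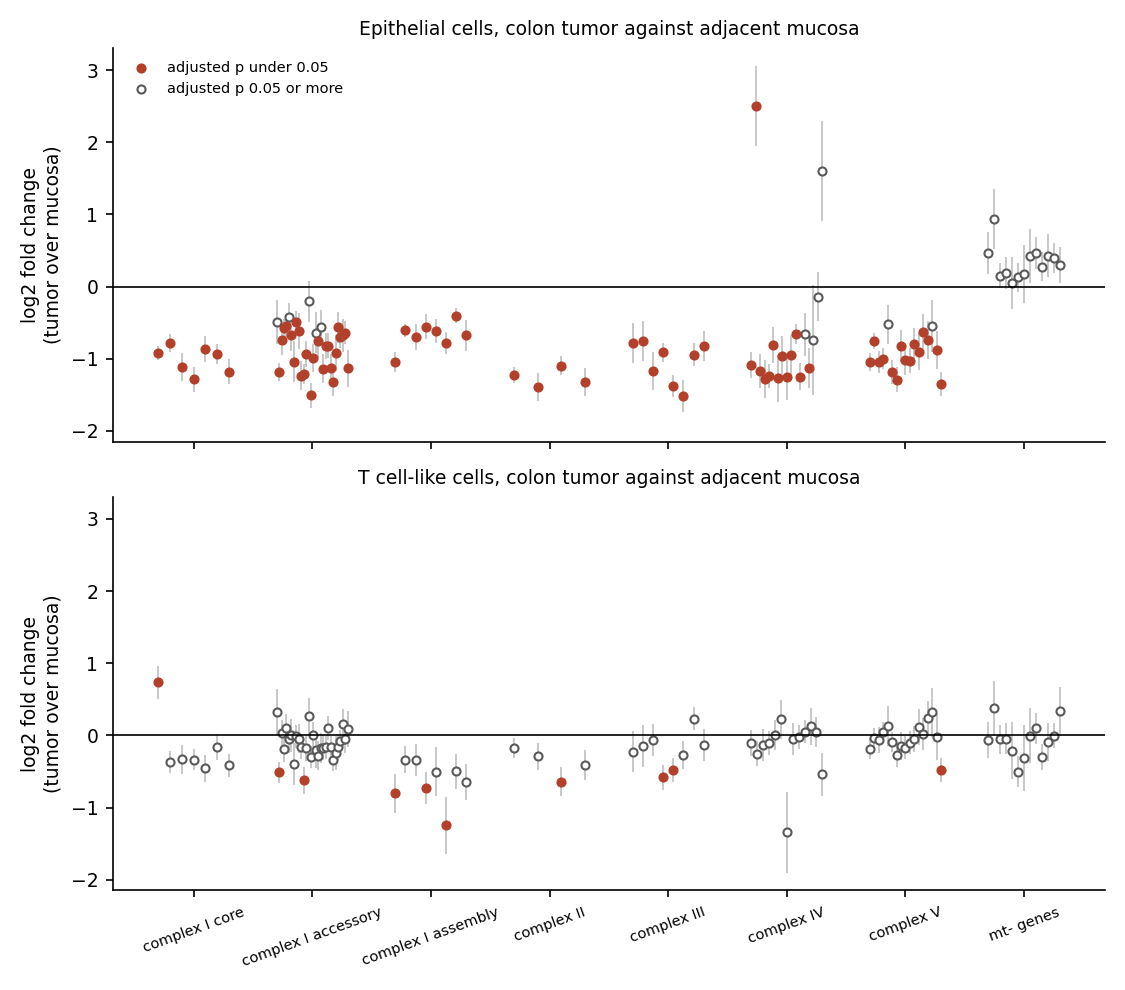
Log2 fold changes of the members, tumor over mucosa, in epithelial (top) and T cell-like sums (bottom), with the nuclear members by complex and the mt- genes apart and bars for the standard error. Filled points had an adjusted P under 0.05. In epithelial sums the nuclear members lie below 0 except Cox4i2 and Ndufa4l2 in complex IV, and the 13 mt- members lie between 0.06 and 0.94 with none filled, though most turned negative with cells under 10% mt- UMIs.

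Promoter sequences are printed for 3 of the members that fell, the 3 with the largest decreases whose window held 1 of the motifs searched. They come from RefSeq on GRCm38.p6 and run over the 250 bases before the annotated start in the direction of transcription, 5′ to 3′. Capitals mark the core of the site of nuclear respiratory factor 1 (TGCGCA) or the core that GABP and other ETS factors bind (CCGGAAG, or CTTCCGG where it lies on the other strand). Sdhd lies at chr9:50603850-50604099 on the minus strand, Cox5b at chr1:36691237-36691486 on the plus strand and Cox6a1, the common form of complex IV subunit VIa, at chr5:115348959-115349208 on the minus strand. 
Sdhd: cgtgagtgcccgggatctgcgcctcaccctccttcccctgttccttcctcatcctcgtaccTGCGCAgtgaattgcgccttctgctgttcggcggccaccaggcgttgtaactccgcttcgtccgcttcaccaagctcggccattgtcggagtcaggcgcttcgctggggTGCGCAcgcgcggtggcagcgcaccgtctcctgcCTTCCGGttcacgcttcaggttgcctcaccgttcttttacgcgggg
Cox5b: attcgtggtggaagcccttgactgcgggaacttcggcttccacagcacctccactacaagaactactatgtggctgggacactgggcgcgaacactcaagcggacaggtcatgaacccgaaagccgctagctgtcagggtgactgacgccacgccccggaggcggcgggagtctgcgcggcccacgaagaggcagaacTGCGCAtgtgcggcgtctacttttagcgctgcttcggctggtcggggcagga
Cox6a1: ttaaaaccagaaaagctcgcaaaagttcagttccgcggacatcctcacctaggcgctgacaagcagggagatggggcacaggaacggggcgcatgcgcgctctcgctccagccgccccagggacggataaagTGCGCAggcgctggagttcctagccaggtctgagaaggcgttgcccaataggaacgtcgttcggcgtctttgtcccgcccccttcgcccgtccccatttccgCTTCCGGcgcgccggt

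In the Sdhd window the NRF1 core begins 80 and 189 bases before the start and the ETS core 46 bases before it. In the Cox5b window the NRF1 core begins 52 bases before the start, and in the Cox6a1 window it begins 118 bases before the start with the ETS core at 16. A window was found for 77 of the 94 nuclear members, 2 of them through an older symbol. Of these, 19.5% held the NRF1 core on either strand, against 6.66% of all 27025 promoter windows of the same length. The ETS core stood in 16.9% of the members and 7.05% of all windows, and the estrogen-related receptor core AAGGTCA in 6.49% and 4.05%. These motifs do not overlap each other in the 3 sequences. A match is a run of letters and not a bound site.

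Transcripts of mitochondrial DNA did not follow the nuclear members. All 13 log2 fold changes in epithelial sums were positive, from 0.06 for mt-Co3 to 0.94 for mt-Atp8, though most turned negative with cells under 10% mt- UMIs. None passed the edgeR test, 1 had an unadjusted P under 0.05, and DESeq2 called 1. Of the genes tested, 33.9% were higher in tumors. With cells limited to under 10% mt- UMIs in place of 25%, the median over the 13 turned to -0.11. Leaving out mucosa 1 brought 3 mt- genes past the test, leaving out tumor 2 brought 1, and mouse as a block brought 3.

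The 13 genes are transcribed in 2 long precursors of the circular genome, 12 of them from one strand and mt-Nd6 from the other. Their UMIs nevertheless did not keep fixed proportions among libraries. mt-Atp8, a small ATP synthase subunit, was at 721, 112 and 599 CPM in the epithelial sums of mucosa 1, 2 and 3. Tumors ranged from 704 (tumor 5) to 1623 CPM, with a median of 1026. Mucosa 2 was therefore several times below every other library. mt-Nd4l, a complex I core subunit, was at 1201, 298 and 767 CPM in mucosa and at 753 (tumor 5) to 1512 CPM in tumors. Against this, mt-Nd1 stood highest of the mucosa samples in mucosa 2 (1189, 3425 and 1460 CPM) and highest of the tumors in tumor 5 (4694 CPM, lowest tumor 1424 CPM), and mt-Co3 likewise (4368, 10187 and 6190 CPM in mucosa, 14804 CPM in tumor 5). In both of these libraries, which come from mouse A, UMIs of the short genes mt-Atp8 and mt-Nd4l were low while those of mt-Nd1 and mt-Co3 were high.

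The same held when the UMIs of each short gene were set against those of the gene it overlaps. mt-Atp8 shares 43 bases with mt-Atp6 and mt-Nd4l shares 7 with mt-Nd4. mt-Atp8 UMIs were 9.66%, 1.14% and 5.05% of mt-Atp6 UMIs in epithelial cells of mucosa 1, 2 and 3, and 10.7%, 0.837% and 5.70% in T cell-like cells. Epithelial cells of tumors held 3.50% (tumor 5) to 13.3% (tumor 10), and T cell-like cells 3.26% to 13.3% in the same 2 tumors. mt-Nd4l was 52.8%, 10.8% and 30.2% of mt-Nd4 in epithelial mucosa and 57.7%, 8.61% and 36.7% in T cell-like mucosa. In each of the 8 classes compared, mucosa 2 had the lowest proportion of both pairs and tumor 5 the next lowest. The classes of 1 library were not equal, however. For mt-Atp8 they ran from 0.299% in Ly6c+ monocyte-like to 1.26% in crypt epithelial-like cells of mucosa 2, and from 7.58% in absorptive epithelial-like to 11.3% in neutrophil-like cells of tumor 8. How reads over the overlaps were assigned is not stated in the sources used here. The proportions compare UMIs assigned to overlapping genes and do not show that amounts of separate transcripts differed. The log2 fold change of mt-Atp8, the largest of the mt- group at 0.94, was 0.47 without mucosa 2. Mucosa 3 also lay below every tumor.

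In tumors, the mt- share of epithelial UMIs was 7.09% ± 1.98 (SD, n = 10; 4.64% to 9.49%) against 4.92% ± 0.886 in mucosa (SD, n = 3; 3.94% to 5.65%), with overlap. The mt- to nuclear UMI ratio was 2.21 ± 1.04 in tumors and 0.899 ± 0.238 in mucosa. It ran from 1.01 in tumor 2 to 3.70 in tumor 9, and tumor 2 lay below mucosa 2 (1.11). The share differed by 2.16 percentage points and the ratio by 1.31 (tumor minus mucosa). With cells under 10% mt- UMIs these differences were 0.408 and 0.560, each with overlap. These shares are sums over members and carry no test.

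Other mitochondrial genes moved with the nuclear members in epithelial cells. All 19 genes of the tricarboxylic acid cycle list fell (median log2 fold change -0.87), as did 68 of 78 mitochondrial ribosomal protein genes (median -0.63), and 24 of 31 electron carriers and assembly factors of complexes II to V (median -0.78). Suclg1, a subunit of succinyl-CoA ligase, fell by 1.75 (SE 0.19) and Surf1, an assembly factor of complex IV, by 1.69 (SE 0.11). Etfb, a carrier of electrons from fatty acid oxidation, fell by 1.51 (SE 0.12), and Suclg2 by 1.61 (SE 0.14). Among mitochondrial ribosomal proteins Mrpl42 and Mrps31 fell by 1.26 and 1.13.

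Genes that maintain and express mitochondrial DNA went both ways, with 11 of 22 lower and 5 higher. Ppargc1b, a coactivator of mitochondrial biogenesis, fell by 2.15 (SE 0.24), and Tfam, which packages and transcribes mitochondrial DNA, fell by 1.16 (SE 0.09). Of the 19 glycolysis and lactate genes tested, 9 were lower and 4 were higher (median -0.18), and the 2 largest changes were increases, of Slc16a3, a lactate exporter (3.43, SE 0.24), and Pfkfb3, which makes an activator of phosphofructokinase (2.44, SE 0.25). The adenine nucleotide carriers divided, with Slc25a5 lower by 1.19 (SE 0.19) and Slc25a4 higher by 0.92 (SE 0.22), and 3 of 4 tested genes of that list were lower.

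Signs of handling and of other cells differed between the tissues as well. Of 16 dissociation stress genes, 15 were higher in tumor epithelium (median log2 fold change 2.02), and they made up 0.302% to 0.636% of non-mitochondrial UMIs in tumors and 0.123% to 0.147% in mucosa. Hspb1 and Hspa1a, both heat shock proteins, were higher by 8.39 and 4.19. Of 11 immune marker genes, 8 were higher in the tumor epithelial sums and 1 was lower (median log2 fold change 2.47). The largest changes were those of S100a9 (5.39) and Tyrobp (4.40), neither of which overlapped between the tissues. The 11 together, of which 3 are immunoglobulin genes, made up 0.219%, 0.383% and 0.354% of non-mitochondrial UMIs in mucosa 1, 2 and 3. They made up 0.108% to 0.391% in tumors, so the tissues overlapped in this sum. None of the 11 was at 0 in any library. Immune cells carry a lower nuclear share than epithelial cells. An 11-gene epithelial marker list, with markers of absorptive and goblet cells in it, took 2.11% to 3.42% in mucosa and 0.952% to 1.56% in tumors. The part of handling, of immune RNA and of the mix of epithelial types in the differences of the members was not tested. Cytosolic ribosomal protein genes, in contrast, made up 18.2% to 23.6% of non-mitochondrial UMIs in mucosa and 19.7% to 23.9% in tumors.

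Among the finer epithelial groups, the share of nuclear members called lower was well above the background in crypt epithelial-like and absorptive epithelial-like cells. In goblet-like cells and in a cluster led by Defb45 and Robo2, adjusted calls by edgeR were near the background or below it. Median log2 fold changes over nuclear members there were -0.18 and -0.17, against 0.02 over all genes in each. The differences between these groups were not tested. In crypt epithelial-like cells, 78 of 88 nuclear members were lower (background 31.0%), and 66 with cells under 10% mt- UMIs. Of 13 mt- members, 9 were higher (background 36.0%), but 0 with cells under 10% mt- UMIs, with 1 at an unadjusted P under 0.05, and 2 with no limit on mt- UMIs. The mt- share of this class was 4.09% ± 0.499 in mucosa (SD, n = 3) and 8.29% ± 2.48 in tumors (SD, n = 10), a difference of 4.20 percentage points that was 0.833, with overlap, under 10% mt- UMIs. Different clusters made up this class in the 2 tissues. Most of its mucosa cells came from a cluster led by histone genes such as Hist1h1b (1798 mucosa and 40 tumor cells), and its tumor cells from a cluster led by Lix1 (3356 tumor cells) and one led by Gm26917 (4396 tumor cells), whose median mt- percent of 13.5 was well above the others. Without the Gm26917 cluster, 66 of 88 nuclear members were lower (background 27.5%) and 3 of 13 mt- members higher (background 32.2%), or 0 under 10% mt- UMIs. Leaving out mucosa 3 as well reduced the 3 to 0 and leaving out mucosa 2 or any of tumors 6 to 9 reduced it to 1, while leaving out tumor 2 raised it to 5. With the Gm26917 cluster included, 4 mt- members passed without mucosa 3. In the crypt-like sums mt-Co1 was at 6422, 7519 and 6585 CPM in mucosa and at 10217 to 19504 CPM in tumors (log2 fold change 0.91, SE 0.21, adjusted P = 0.0015), with no overlap. Under 10% mt- UMIs the mt-Co1 ranges overlapped, at 6344 to 7157 CPM in mucosa and 7010 to 10064 CPM in tumors (log2 fold change 0.25, SE 0.12, adjusted P = 0.077).

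Absorptive epithelial-like cells showed 41 of 87 nuclear members lower (background 14.3%), and 42 of 87 in the cluster led by Clca4b (background 11.0%), which held cells of both tissues (1031 from tumors and 940 from mucosa). The rest of the class was a cluster led by Cyp2c55, with 2271 mucosa cells and 1 tumor cell, so the first count sets mostly different clusters against each other and shares its tumor cells with the second. These counts were 23 and 23 without mucosa 2 and 24 and 17 without mucosa 3, and the second was 26 without the TMM factor, which moved the median of all genes there from 0.04 to 0.20. Uqcrfs1 and Sdhb had the largest decreases in the absorptive-like sums. The nuclear share of this class spread widely among tumors, from 2.70% to 6.98%, and overlapped mucosa at 6.24% to 6.66%. No mt- member passed edgeR's test as higher in the absorptive-like sums (background 13.8%), with 3 at an unadjusted P under 0.05 and 2 called by DESeq2, but 5 passed without mucosa 1 and 2 without tumor 10.

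No nuclear member of 84 passed edgeR's test in goblet-like cells (background 1.16% lower; 13 were lower at an unadjusted P under 0.05, 8 by DESeq2, and by edgeR 4 without tumor 2 and 6 with doublets kept), while 4 of 13 mt- members were higher, mt-Nd3, mt-Nd4, mt-Nd5 and mt-Nd6 (background 3.03%), but 0 with cells under 10% mt- UMIs, where 4 had an unadjusted P under 0.05 over 6 tumors. The mt- share of goblet-like tumor cells lay above mucosa by 3.81 percentage points without overlap, and by 1.00 with overlap under that limit. This comparison rests on 483 tumor cells of 8 tumors. mt-Nd5 was at 536, 643 and 543 CPM in mucosa and at 831 to 1859 CPM in tumors, with a log2 fold change of 1.27 (SE 0.28, adjusted P = 0.018), and of 0.66 (SE 0.20, adjusted P = 0.15) under 10% mt- UMIs. The number of mt- members called was 0 without mucosa 3, 1 without mucosa 1 or mucosa 2, and 2 without tumor 3, 5 or 7. The cluster led by Defb45 and Robo2, found in both tissues, had 7 of 89 nuclear members lower (background 5.18%), and this count was unstable, at 0 without mucosa 2 or mucosa 3 and 16 without mucosa 1. Leaving out tumors 1, 2 or 6 gave 11, 14 and 11 and leaving out tumors 4, 5, 7, 8 or 9 gave 2 to 4. DESeq2 called 17, the mouse block 20, and edgeR 13 with no limit on mt- UMIs and 16 with doublets kept. The shares of all genes called at these other settings are not given here. In the main edgeR test, 25 nuclear members of this cluster were lower and 0 higher at an unadjusted P under 0.05. The nuclear share of that cluster was 5.65% ± 0.424 in mucosa (SD, n = 3) and 5.18% ± 0.663 in tumors (SD, n = 10).

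T cell-like cells of the same libraries showed much less. Of 87 nuclear members, 9 were lower in tumors and 1 was higher, against 8.94% and 11.5% of all 9970 genes tested, so the share lower was close to the background. The 9 were Ndufaf6, Ndufaf1 and Ndufaf4, all complex I assembly factors, with Sdhc, Ndufa9, Ndufa10, Uqcrc1, Uqcrc2 and Atp5o, at log2 fold changes of -1.25 to -0.48. Ndufaf1 was at 16.4, 18.2 and 16.8 CPM in mucosa and at 6.76 to 11.9 CPM in tumors (log2 fold change -0.80, SE 0.27, adjusted P = 0.037). Ndufs1, the largest core subunit of complex I, was the 1 that rose, from 22.6, 7.27 and 18.7 CPM, counted from 45 UMIs in all, to 25.7 to 34.1 CPM (log2 fold change 0.74, SE 0.23, adjusted P = 0.025). No mt- member passed edgeR or DESeq2, and 1 was lower at an unadjusted P under 0.05. An unnamed immune cluster led by Gzma, Cd7 and Cd160 was outside this class and was not tested. Its leading genes also included Cd8a and the T cell receptor genes Tcrg-C2 and Trgv2. It held 438 tumor and 3966 mucosa cells, while no T cell-like cluster held over 384 mucosa cells. The T cell-like results therefore leave out many mucosa cells with T cell genes. The nuclear share of the unnamed cluster differed by -0.286 percentage points (tumor minus mucosa), with overlap.

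The T cell-like counts hung on single samples. The number lower was 5, 2 and 0 without mucosa 1, 2 and 3 in turn and 17 without tumor 2, and Ndufs1 was no longer called without mucosa 2 or mucosa 3. The edgeR count of 0 without mucosa 3 stood beside 13 at an unadjusted P under 0.05. Without the TMM factor the median of all genes moved from 0.01 to -0.13 and the number lower to 17, while 1413 of all 9970 genes were lower and 785 higher. The T cell-like nuclear share was 2.73%, 2.72% and 2.54% in mucosa 1, 2 and 3 and 1.80% to 2.91% in tumors (median 2.23%). RNA of the epithelial marker list was also found in the T cell-like sums, at 0.0249%, 0.354% and 0.108% of non-mitochondrial UMIs in mucosa 1, 2 and 3 and at 0.00676% to 0.0316% in tumors, with 0 to 2 of its genes at 0. Its part in the T cell-like differences was not tested.

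The difference between the classes was tested itself, as the epithelial minus the T cell-like tumor effect within the 13 libraries. Tumors of 1 mouse counted as separate in this test, and no alternative of it summed tumors by mouse. The tumor effect was more negative in epithelial cells for 74 of 89 nuclear members (background 13.2% of 15385 genes). This count was 43 without the TMM factor, where 3 were more positive. Of all 15385 genes, 816 were then more negative and 2779 more positive. For mt- members it was more positive for 5 of 13 (background 8.12%), mt-Atp8, mt-Atp6, mt-Nd4l, mt-Nd4 and mt-Cytb, by 0.44 to 0.52, but for none with cells under 10% mt- UMIs, where 4 were more negative, and for 12 without the TMM factor. The count of 5 was 2 without mucosa 2, 3 without mucosa 3 and 8 without tumor 1, 2 or 10, and it was 3 without the Gm26917 cluster. The 3 members with the smallest adjusted P were Cox7b, a small subunit of complex IV, at -1.38 (SE 0.14, adjusted P = 5e-07), Uqcrh at -1.24 (SE 0.13, adjusted P = 7e-07) and Uqcrfs1 at -1.29 (SE 0.14, adjusted P = 8.2e-07). Cox7b was at 1010, 973 and 815 CPM in epithelial mucosa and at 316 to 629 CPM in epithelial tumor sums, with a log2 fold change of -1.25, and its T cell-like fold change was 0.05. Of the members called, Ndufs1 differed most in size, by -1.68, since it fell in epithelial cells (-0.92) and rose in T cell-like cells. The assembly factors Ndufaf1 and Ndufaf6, lower in both classes, did not differ between them beyond the test (-0.26, SE 0.25, and 0.56, SE 0.36).

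Nuclear members were also lower in B cell-like and NK or innate lymphoid-like cells, and no other difference between classes was tested. B cell-like cells had 49 of 82 nuclear members lower in tumors (background 20.9%), with a median of -0.55, and every tumor lay below every mucosa sample in the summed share (1.18% to 1.92% against 2.12% to 2.41%). Sdhb was at 136, 153 and 162 CPM in B cell-like mucosa and at 58.4 to 110 CPM in tumors (log2 fold change -0.90, SE 0.18, adjusted P = 0.00024). The epithelial marker list took 0.0441%, 0.255% and 0.0977% of non-mitochondrial B cell-like UMIs in mucosa 1, 2 and 3 and 0.00712% to 0.0549% in tumors, with 0 to 4 of its genes at 0, and its part in the decrease was not tested. NK or innate lymphoid-like cells had 24 of 77 lower (background 13.4%), and 8 without mucosa 1. Dissociation stress genes were higher in these lymphoid classes too, 12 of 15 in B cell-like cells (median log2 fold change 1.90), 12 of 14 in NK or innate lymphoid-like cells (2.06) and 13 of 15 in T cell-like cells (1.73). They took 0.156% to 0.168% of non-mitochondrial B cell-like UMIs in mucosa and 0.429% to 0.827% in tumors, and 0.203% to 0.230% and 0.439% to 0.643% of T cell-like UMIs. Their part in the differences of the members was not tested. B cell-like mt- members gave 0 calls as higher in edgeR (background 17.7%) and DESeq2 with 0 at an unadjusted P under 0.05, but 2 without mucosa 1 and 1 without tumor 10.

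Ly6c+ monocyte-like and dendritic-like cells, the myeloid classes tested alone, showed no call among nuclear members in the edgeR test at the main settings. In Ly6c+ monocyte-like cells, 0 of 89 nuclear members passed (background 4.72% higher, 1.32% lower), with 10 higher and 1 lower at an unadjusted P under 0.05 and 1 lower by DESeq2. With mouse as a block 9 passed as higher, 1 did so without mucosa 2 or mucosa 3, and without the TMM factor, which moved the median of all genes from 0.19 to -0.20, 2 passed as lower. In dendritic-like cells 0 of 89 passed in edgeR (background 4.29% higher, 2.10% lower) and in DESeq2, with 2 higher at an unadjusted P under 0.05, while 1 passed as higher with mouse as a block or without mucosa 3 and 2 without mucosa 1. Mucosa held only 98 Ly6c+ monocyte-like and 87 dendritic-like cells, which limits what these comparisons could detect.

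Plasma cell-like cells had 4 nuclear members higher and 4 lower of 87 (background 12.5% and 14.0%) and 4 of 13 mt- members higher. Those lower were Sdhd (-0.98, SE 0.18), Ndufaf1, Uqcrc2 and Uqcrfs1, and those higher Cox4i2, Ndufa1, Uqcrq and Ndufs5. The direction depends on the scaling. The immune marker list, with its 3 immunoglobulin genes, took 28.6%, 38.4% and 47.0% of non-mitochondrial plasma cell-like UMIs in mucosa 1, 2 and 3 and 51.9% to 59.1% in tumors. Without the TMM factor the median of all genes moved from 0.04 to -0.59, and then 63 nuclear members were lower, 1 higher and no mt- member passed. Mouse as a block gave 9 higher, 10 lower and 9 mt- higher. Without mucosa 1, 2 and 3 in turn the number higher was 9, 0 and 1, and the number lower was 1 without mucosa 2, 10 without tumor 2 and 2 without tumor 3, 5, 6, 7 or 9. With doublets kept it was 14. The shares of all genes called at these other settings are not given here, so these counts have no background beside them.

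**Figure D4:**
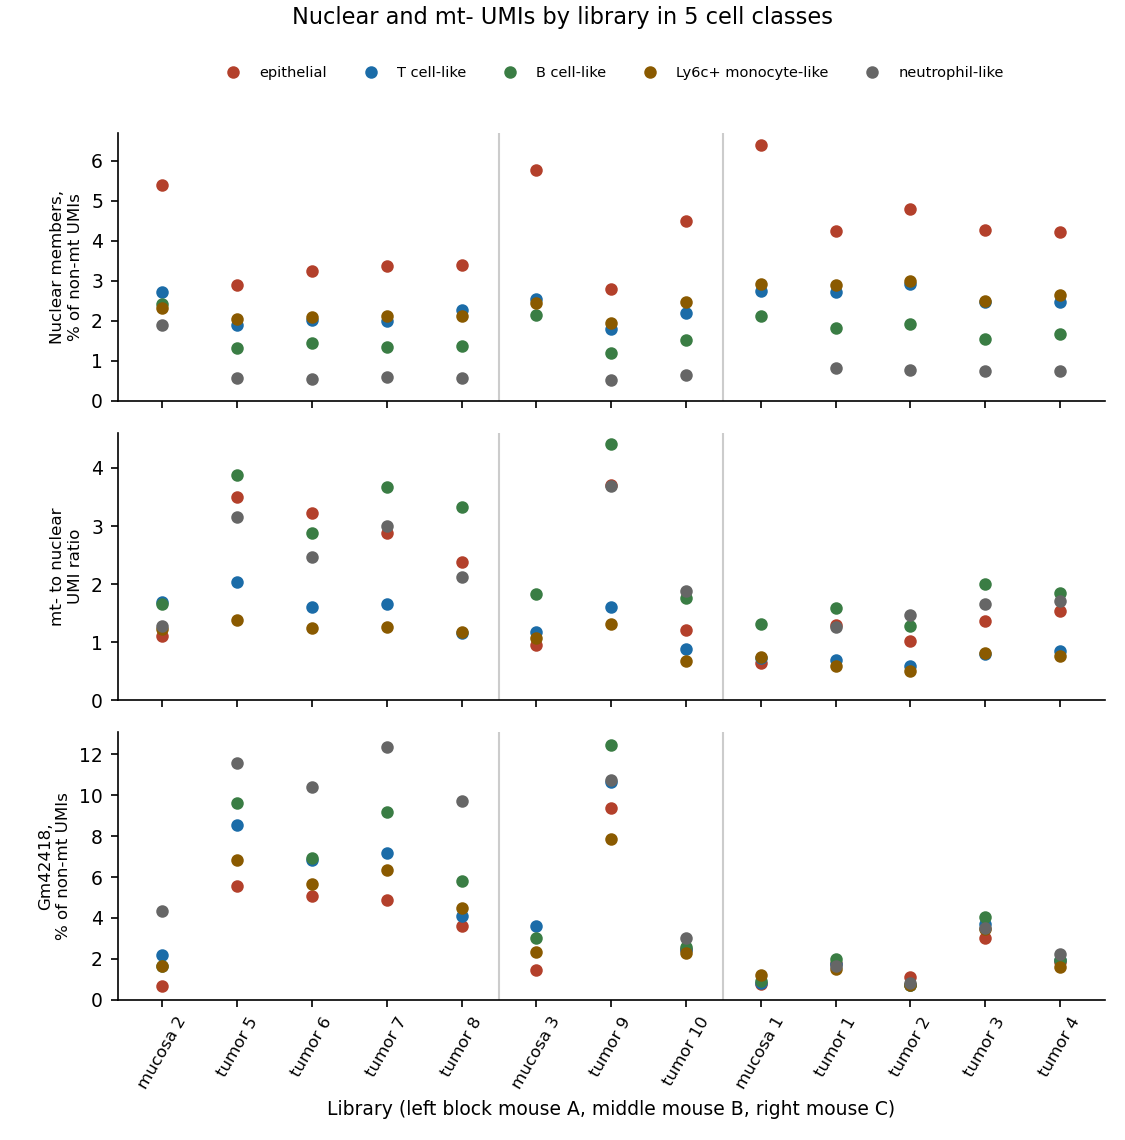
Nuclear share (top), mt- to nuclear UMI ratio (middle) and Gm42418 as a percent of non-mitochondrial UMIs (bottom) in each library, with 1 color for each of 5 cell classes and libraries in blocks by mouse. Tumors 5 to 8 of mouse A and tumor 9 of mouse B hold lower nuclear shares than tumors 1 to 4 of mouse C in epithelial (2.79% to 3.39% against 4.22% to 4.80%) and T cell-like cells (1.80% to 2.26% against 2.46% to 2.91%). Tumor 10 of mouse B lies with the tumors of mouse C in epithelial cells but below them in T cell-like cells.

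Tumors differed among themselves in a similar way in epithelial and T cell-like cells, apart from tumor 10. Epithelial nuclear shares were 4.22% to 4.80% in the 4 tumors of mouse C, 2.89% to 3.39% in the 4 of mouse A, and 2.79% and 4.49% in the 2 of mouse B. In T cell-like cells they were 2.46% to 2.91%, 1.90% to 2.26%, and 1.80% and 2.20%. Tumor 10 thus lay within the range of mouse C in epithelial cells and within that of mouse A in T cell-like cells. The mt- to nuclear ratio went the other way in both classes, with epithelial ratios of 1.01 to 1.53 in mouse C, 2.38 to 3.50 in mouse A, and 3.70 and 1.21 in tumors 9 and 10 of mouse B. Age and mouse cannot be told apart here.

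Another transcript moved with this pattern, apart from tumor 10 in T cell-like cells. Gm42418, a locus that overlaps a ribosomal RNA repeat, took 1.10% to 3.02% of non-mitochondrial epithelial UMIs in the tumors of mouse C, 3.61% to 5.56% in those of mouse A, and 9.38% and 2.46% in tumors 9 and 10. In T cell-like cells it took 0.741% to 3.72%, 4.10% to 8.52%, and 10.6% and 2.42%. Mucosa epithelium held 0.654% to 1.45%. Mitochondrial ribosomal protein genes followed the nuclear members instead, at 0.857% to 0.981%, 0.691% to 0.771%, and 0.686% and 0.929% in the 3 mice. What Gm42418 contributes to the spread of the members was not tested.

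Several subunits of complex IV have isoforms known from muscle, lung, brain or testis, and in these colon libraries they were seen in few cell types. Cox6a2, the heart and skeletal muscle form of subunit VIa, was found almost wholly in a dendritic-like cluster led by Siglech, a lectin-like receptor gene. That cluster, of 341 tumor and 28 mucosa cells, held 87.8% of all 3387 Cox6a2 UMIs, counted over its 9 tumors with at least 20 of its cells. Cox6a2 is among the leading genes of the cluster, so its level there is a description. It was at 660 to 2455 CPM in these 9 tumors (median 1114, mean 1199 ± 569, SD), highest in tumor 1. The other dendritic-like cells of tumors held 1.50 ± 1.38 CPM (SD, n = 10) and the epithelial sums 0 to 0.910 CPM.

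Cox4i2, an isoform of subunit IV known from lung and for its response to low oxygen, was the only nuclear member higher in tumor epithelium. It rested on 112 UMIs in tumors and 12 in mucosa, at 0.128 to 0.818 CPM in tumors and 0.0496, 0.0889 and 0.0241 CPM in mucosa (log2 fold change 2.51, SE 0.56, adjusted P = 0.0014), with no overlap. Plasma cell-like cells held 67.6% of all 1531 Cox4i2 UMIs. There it was at 3.18 to 36.7 CPM in tumors (median 15.7) and at 0, 2.64 and 1.87 CPM in mucosa, from 6 UMIs, and it rose by a fitted 3.99 on the log2 scale (SE 1.13, adjusted P = 0.023). Fibroblast-like cells of tumors held 16.0 ± 18.7 CPM (SD, n = 6). The immune marker genes that were higher in the tumor epithelial sums are given above, and their part in the epithelial Cox4i2 counts was not tested.

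Ndufa4l2, a paralog of Ndufa4 known as a target of hypoxia-inducible factor, was highest in fibroblast-like cells at 64.2 ± 66.1 CPM (SD, n = 6, 0 to 151 CPM). In epithelial sums it was at 0.116, 0.534 and 0.579 CPM in mucosa and 0.427 to 4.41 CPM in tumors, and its log2 fold change of 1.60 (SE 0.69) missed the threshold in edgeR (adjusted P = 0.055) and passed it in DESeq2 (adjusted P = 0.019).

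Cox7a1, the heart and muscle form of subunit VIIa, was lower in tumor epithelium as a whole (log2 fold change -1.25, SE 0.32, adjusted P = 0.0038), at 59.8, 38.6 and 54.0 CPM in mucosa and 14.3 to 41.3 CPM in tumors. Within absorptive epithelial-like cells, where it was most abundant, its means were 126 ± 43.7 CPM in tumors (SD, n = 10) and 133 ± 53.0 in mucosa (SD, n = 3). In goblet-like cells they were 91.3 ± 25.7 (SD, n = 8) and 77.6 ± 14.8. In crypt epithelial-like cells they were 15.3 ± 7.18 and 20.8 ± 15.3. Within each of these classes the means of the 2 tissues differed by less than the spread between samples. The classes take different shares of the epithelial sums in tumors and in mucosa, and the part of these shares in the decrease of Cox7a1 was not tested.

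Cox6b2, known from testis and sperm, fell by 1.27 in epithelial sums (SE 0.33, adjusted P = 0.0038), from 8.26, 7.97 and 8.09 CPM in mucosa to 1.21 to 6.45 CPM in tumors. In crypt epithelial-like cells it was at 15.3 ± 2.11 CPM in mucosa (SD, n = 3) and 4.33 ± 1.88 CPM in tumors (SD, n = 10), and fell by 1.99 (SE 0.32). Cox8b, a muscle form of subunit VIII, came mostly from goblet-like cells, which held 99 of its 106 UMIs in mucosa epithelium at 2.50 ± 0.290 CPM (SD, n = 3). Cox7b2 and Cox8c, both known from testis, had 3 and 1 UMIs in all cells.

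**Figure D5:**
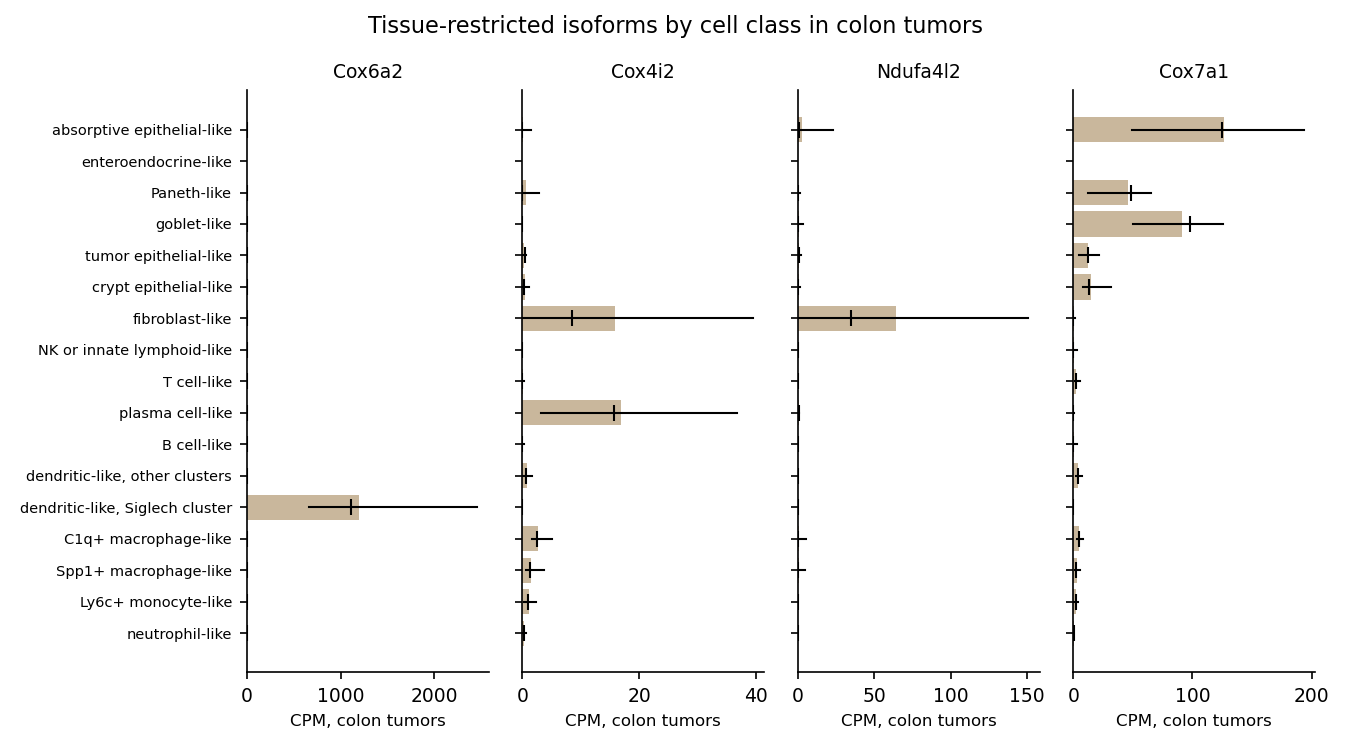
CPM of Cox6a2, Cox4i2, Ndufa4l2 and Cox7a1 by cell class in colon tumors, on linear axes that differ between panels. Bars give the mean over tumors with at least 20 cells of the class, ticks the median and lines the range. Cox6a2 stands at a mean of 1199 CPM in the dendritic-like cluster led by Siglech, and Cox4i2 at 17.0 CPM in plasma cell-like cells.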

How the data were processed

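Droplet-based single-cell RNA-seq had been run on 10 colon tumors and 3 adjacent mucosa samples of 3 mice. The deposited matrices hold counts of UMIs per gene and barcode, which the authors made with Cell Ranger on mm10, in version 6.0.0 per the submitters' processing notes, while the study's methods name an earlier version. The annotation is not given in the sources used here, gene positions were taken from GENCODE on GRCm38 and promoters from RefSeq on GRCm38.p6.

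Barcodes were kept from 500 UMIs and 200 genes upward if mt- genes took under 25% of the UMIs, and 8977 called doublets were removed. Counts scaled to 10000 per cell, 2000 variable genes with the members held out, 30 principal components and 20 neighbors gave 40 clusters by the Leiden method (leidenalg 0.10.2, scikit-learn 1.9.0, Python 3.11.15), named from fixed markers. RNA free in the droplets was not corrected for. UMIs were then summed over the cells of a class in each library with at least 20 cells. The libraries held 57221300 to 116133079 UMIs. Classes with at least 3 mucosa samples and 5 tumors were tested with the quasi-likelihood test of edgeR 4.0.16 (R 4.3.3) with TMM factors and Benjamini-Hochberg adjustment over all genes tested, at 0.05. DESeq2 1.42.0 and the other settings of the closing section were alternatives. The tests were checked on simulated counts. Epithelial and T cell-like effects were compared in 1 model with library as a block.

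The members and lists were chosen with earlier results of these data known. Genes named in the text are the 13 mt- and 4 Sdh genes, in each other complex the 2 most abundant and the 2 most changed in each direction, the restricted isoforms, the 2 most changed of each other list and the 3 with the smallest adjusted P between classes, and further genes were named after their values were seen. Each mouse gave both tissues. Deviations of its tumors and mucosa from the group means correlated in epithelial sums (r = 0.202 for mouse A, 0.129 for B and 0.255 for C) and less in T cell-like sums (0.135, 0.0209 and 0.101). The 3 mucosa samples come from separate mice, but tumors of 1 mouse do not, so the spread between tumors is partly within mice.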

Additional observations from a re-analysis of the deposited data

Results flagged for a closer look

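Among 81 groups of 4 to 10 samples examined, 4 held a sample far from the rest, and chance alone marks about 1 group in 20. mt-Nd4l was lowest in epithelial cells of tumor 5 (753 CPM), where mt-Atp8 was also lowest. Ndufa4l2 was highest in epithelial cells of tumor 2 (4.41 CPM). Ndufa10 was highest in epithelial cells of tumor 10 (184 CPM). Cox6a2 was highest in tumor 1 (2455 CPM) in the dendritic-like cluster led by Siglech.

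The effect of tumor against mucosa differed between epithelial and T cell-like cells in the test of the difference itself for 74 nuclear members, which were more negative in epithelial cells, and for 5 mt- members, which were more positive there except with cells under 10% mt- UMIs. The mt- differences in log2 fold change were 0.44 for mt-Atp8, 0.45 for mt-Atp6, 0.45 for mt-Nd4l, 0.46 for mt-Nd4 and 0.52 for mt-Cytb. In complex I the differences were -1.68 for Ndufs1, -1.27 for Ndufb10, -1.07 for Ndufb9 and -1.03 for Ndufb8. In complex II they were -1.06 for Sdha, -1.12 for Sdhb and -0.98 for Sdhd. In complex III they were -1.29 for Uqcrfs1, -1.24 for Uqcrh, -0.91 for Uqcrc2 and -0.60 for Uqcr10. Complex IV gave -1.38 for Cox7b, -1.25 for Cox5b, -1.24 for Cox8a and -0.83 for Cox7c, and complex V gave -1.07 for Atp5g1, -0.90 for Atp5o and -0.70 for Atp5e.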

How the results depend on the processing

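Over 69 genes named in epithelial sums, 1648 of 1725 values kept their direction and their side of the threshold across the alternatives, 7 lost the call, 45 gained it and 25 changed sign. For 23 genes in T cell-like sums these numbers were 441 of 529, 49, 3 and 36. For 4 of the genes named for the difference between the classes, Cox7b, Uqcrh, Uqcrfs1 and Ndufs1, all 76 values were unchanged in direction and call. The other genes named for that difference, mt- members among them, were not followed in this way. The cause of the changes below was not tested.

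In epithelial cells, the number of nuclear members lower was 41 in absorptive-like cells alone and 0 in goblet-like cells alone, and it was 86 with mouse as a replicate block. The number higher was 2 with DESeq2, without the TMM factor, with cells under 10% mt- UMIs, with no limit on mt- UMIs, with doublets kept, with the tumors of each mouse summed, and without tumor 6 or 9, and it was 0 in absorptive-like or goblet-like cells alone. The number of mt- members higher was 1 with DESeq2, 5 without the TMM factor, 1 with no limit on mt- UMIs, 3 with the block by mouse, 4 in goblet-like cells alone, and 0 to 3 with 1 library left out. In T cell-like cells, the number of nuclear members lower was 17 without the TMM factor, 4 without the filter on low counts, 10 with the block by mouse and 0 to 17 with 1 library left out, and the number higher was 0 with the tumors of each mouse summed and 0 to 1 with 1 library left out. One mt- member was lower without the TMM factor and with the block by mouse, and 0 to 1 with 1 library left out.

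The difference between epithelial and T cell-like cells covered 43 nuclear members as more negative without the TMM factor, where 816 of all 15385 genes were more negative and 2779 more positive. The number of mt- members more positive was 0 under 10% mt- UMIs, 10 with no limit, 8 with at least 1000 UMIs and 500 genes, 12 without the TMM factor, 3 without the Gm26917 cluster and 2 to 8 with 1 library left out. Under 10% mt- UMIs, 4 mt- members were instead more negative.

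With 1 library left out, the mt- members higher ranged from 0 to 2 in B cell-like cells, 0 to 5 in absorptive-like, 4 to 11 in crypt-like, 0 to 5 in crypt-like cells without the Gm26917 cluster, 0 to 6 in goblet-like, 0 to 3 in the Clca4b cluster and 0 to 1 in the Defb45 and Robo2 cluster. Nuclear members lower ranged from 8 to 31 in NK or innate lymphoid-like cells, 23 to 50 in absorptive-like, 17 to 55 in the Clca4b cluster, 0 to 4 in goblet-like, 1 to 10 in plasma cell-like and 0 to 16 in the Defb45 and Robo2 cluster, and nuclear members higher from 0 to 9 in plasma cell-like cells.
DESeq2 gave 1 nuclear member lower in Ly6c+ monocyte-like and 1 in all monocyte and macrophage-like cells, 8 in goblet-like, 9 in plasma cell-like and 17 in the Defb45 and Robo2 cluster, with mt- members higher in absorptive-like cells (2), goblet-like cells (11) and the Clca4b cluster (1). Without the TMM factor, nuclear members lower were 2 in Ly6c+ monocyte-like, 6 in all monocyte and macrophage-like, 3 in goblet-like, 63 in plasma cell-like cells and 26 in the Clca4b cluster, with 1 higher in plasma cell-like cells. The mt- members higher were then 3 in absorptive-like, 0 in plasma cell-like, 2 in the Clca4b cluster and 5 in crypt-like cells without the Gm26917 cluster. With mouse as a block, nuclear members lower were 2 in goblet-like, 10 in plasma cell-like and 20 in the Defb45 and Robo2 cluster, 9 were higher in plasma cell-like cells, and mt- members higher were 1 in absorptive-like and 9 in plasma cell-like cells. In alternatives added after the values were seen, mt- members higher were 0 in crypt-like cells with or without the Gm26917 cluster, 0 in goblet-like, 4 in Ly6c+ monocyte-like and 2 in all monocyte and macrophage-like cells under 10% mt- UMIs, and 2 in crypt-like and 1 in absorptive-like cells with no limit. Nuclear members lower were then 13 in the Defb45 and Robo2 cluster with no limit, and 16 there, 6 in goblet-like and 14 in plasma cell-like cells with doublets kept. Dendritic-like cells had too few libraries for a comparison under 10% mt- UMIs. The shares of all genes called at the settings of this paragraph are not given here, so its counts have no background beside them.

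In the epithelial and T cell-like sums, changes of sign concerned uncalled values. Under 10% mt- UMIs the epithelial log2 fold changes were -0.18 for mt-Nd1, -0.11 for mt-Co1, -0.18 for mt-Co2, -0.30 for mt-Co3, -0.04 for mt-Nd4l, -0.14 for mt-Nd4, -0.050 for mt-Nd5, -0.15 for mt-Nd6, -0.30 for mt-Cytb and 0.041 for Ndufa4. Without the Gm26917 cluster mt-Co3 was at -0.066, and without the TMM factor Ndufa4 was at 0.13 and Ndufb1-ps at 0.062. With 1 library left out, the epithelial values ranged from -0.11 to 0.78 for mt-Nd1, -0.19 to 0.44 for mt-Co3, -0.028 to 0.30 for mt-Cytb, -1.15 to 0.17 for Cox8b, -0.41 to 0.32 for Ndufa4, -0.48 to 0.32 for Ndufb1-ps, -0.80 to 0.0036 for Atp5md and -0.76 to 0.065 for Ndufa1.
In T cell-like cells under 10% mt- UMIs, log2 fold changes were 0.028 for mt-Nd1, 0.23 for mt-Nd2, 0.21 for mt-Co1, 0.23 for mt-Co2, 0.21 for mt-Atp6, 0.13 for mt-Co3 and 0.15 for mt-Nd5. Without the filter they were 0.073 for mt-Nd2, 0.018 for mt-Co1, 0.025 for mt-Co2, 0.012 for mt-Atp6 and 0.067 for mt-Nd5. mt-Nd3 was at -0.034 without the TMM factor and mt-Nd4l at 0.010 with the block by mouse. With 1 library left out, the T cell-like values ranged from -0.62 to 0.58 for mt-Nd1, -0.22 to 0.31 for mt-Nd2, -0.23 to 0.23 for mt-Co1, -0.22 to 0.16 for mt-Co2, -0.031 to 0.82 for mt-Atp8, -0.25 to 0.14 for mt-Atp6, -0.51 to 0.47 for mt-Co3, -0.038 to 0.38 for mt-Nd3, -0.42 to 0.38 for mt-Nd4l, -0.43 to 0.028 for mt-Nd4 and -0.092 to 0.16 for mt-Nd5.

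The mt- share of epithelial tumor sums was 4.77% under 10% mt- UMIs, 0.408 percentage points above mucosa at the same limit. As a mean over cells it was 9.39% in tumors and 5.90% in mucosa. The nuclear share of T cell-like mucosa was 2.54% as a mean over cells. Depth limits the small classes most, with 42 enteroendocrine-like tumor cells and 15 fibroblast-like mucosa cells left without a comparison, and counting intervals were not used in place of replicate spread.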
